A study of Mus musculus with 8 samples.

Results

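Expression of 6 genes of lipid synthesis, fatty acid handling and adipose tissue was examined in the ascending aorta of Marfan model mice. The genes were Mlxipl, Acaca, Gpam, Agpat2, Fabp3 and Retn, found by their mouse symbols among the 1329 genes of a deposited FPKM table (fragment counts scaled to gene length and to library size). All mice were Fbn1mgR/mgR, a genotype with low expression of fibrillin-1, a protein of the elastic matrix, and there was no group with normal fibrillin-1. The mice given DT-061, an oral activator of protein phosphatase 2A, gave 4 libraries, and the mice given only the solution of N,N-dimethylacetamide, Kolliphor HS-15 and water in which the compound was prepared (Vehicle) gave 4. Dosing at 5 mg/kg began at 5 weeks of age, was repeated 2 times daily and lasted 4 weeks. The labels do not say whether each library came from a separate mouse, so the p-values measure the spread between these libraries, which may be partly technical.

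Fatty acids are built from acetyl-CoA, which acetyl-CoA carboxylase turns into malonyl-CoA, and are then joined to glycerol-3-phosphate to make phosphatidic acid, the precursor of triglycerides and phospholipids. The transcription factor ChREBP, encoded by Mlxipl, turns on such genes when carbohydrate is plentiful. The aorta is wrapped in perivascular fat, which stores triglyceride and secretes hormones such as resistin, while the muscle of the vessel wall itself uses fatty acids with the help of binding proteins.

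The deposited table is named as holding genes significant between DT-061 and Vehicle, so every gene in it was chosen on the comparison made here and no p-value below is independent evidence. Estimated totals were 14400000 to 15600000 fragments in the DT-061 libraries and 14100000 to 22200000 in the Vehicle libraries. Over the whole table, 404 genes rose and 864 fell by limma on log2(FPKM + 1), where a call needed a Benjamini-Hochberg adjusted p under 0.05 across all 1329. The words rose and fell are kept for such calls. Of 16 smooth muscle contractile markers fixed for the tissue, 10 were in the table, with summed levels of 17900 to 26700 FPKM with DT-061 and 9750 to 15500 FPKM with Vehicle. In bulk tissue, fewer cells of a type and less RNA per cell cannot be told apart.

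Sequence just upstream of the transcript start is given for 4 of the 5 genes that fell, chosen by role: the regulator Mlxipl, the enzymes Gpam and Agpat2 that act in succession, and Retn, which fell most. Each run is the 250 bases before an annotated start, for Mlxipl and Gpam the outermost of 2 in the reference, 5′ to 3′ on the gene's own strand, from RefSeq on GRCm38.p6, in which all 6 genes matched. The windows are chr5:135089640-135089889 on the plus strand (Mlxipl), chr19:55127239-55127488 on the minus strand (Gpam), chr2:26604418-26604667 on the minus strand (Agpat2) and chr8:3655520-3655769 on the plus strand (Retn). Capitals mark matches on either strand to any of 5 motifs. The E-box, the core bound by ChREBP, was searched as the letters CACGTG. The GC box, a general promoter motif, was searched as the letters GGGCGG. The sterol regulatory element was searched as TCACNCCAC, where N is any base. The TATA box was searched with the letters TATAAA at its core, and the CCAAT box by the letters of its name.
Mlxipl: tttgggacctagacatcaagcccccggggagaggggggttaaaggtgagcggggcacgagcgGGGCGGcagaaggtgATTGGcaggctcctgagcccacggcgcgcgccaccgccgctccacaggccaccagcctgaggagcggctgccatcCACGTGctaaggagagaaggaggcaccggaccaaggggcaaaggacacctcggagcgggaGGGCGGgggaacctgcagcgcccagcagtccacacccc
Gpam: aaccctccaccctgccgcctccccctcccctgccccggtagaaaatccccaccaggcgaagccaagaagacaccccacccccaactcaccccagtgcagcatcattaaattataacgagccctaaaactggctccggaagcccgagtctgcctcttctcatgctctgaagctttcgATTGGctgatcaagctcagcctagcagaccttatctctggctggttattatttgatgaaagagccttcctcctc
Agpat2: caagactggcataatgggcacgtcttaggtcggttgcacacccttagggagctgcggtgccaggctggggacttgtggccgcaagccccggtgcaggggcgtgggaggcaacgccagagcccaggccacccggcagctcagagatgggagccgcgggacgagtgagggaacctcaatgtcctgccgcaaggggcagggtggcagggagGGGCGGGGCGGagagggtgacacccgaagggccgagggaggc
Retn: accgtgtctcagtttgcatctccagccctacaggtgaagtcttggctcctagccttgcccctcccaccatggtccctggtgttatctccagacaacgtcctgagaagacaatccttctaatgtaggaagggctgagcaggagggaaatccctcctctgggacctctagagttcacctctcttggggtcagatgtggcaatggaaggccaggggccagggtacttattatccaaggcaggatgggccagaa

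The Mlxipl window held an E-box 98 bases before the start, GC boxes at 188 and 38 bases and a CCAAT box at 173 bases. The Gpam window held a CCAAT box 74 bases before the start. The Agpat2 window held GC boxes at 42 and 37 bases, which overlap each other in the run shown, and the Retn window held none of the 5 motifs. Of the windows not printed, the second of Mlxipl held a sterol regulatory element 136 bases before its start, the second of Gpam held a GC box at 16 bases, and those of Acaca and Fabp3 held none of the motifs. The Acaca window, chr11:84195188-84195437 on the plus strand, lies inside the annotated gene, which begins at 84129672. Sequence before that outer start of Acaca was not searched. Over the 32851 windows of the same length in the reference, 6.02% held the E-box, 32.7% the GC box, 33.8% the CCAAT box, 12.4% the TATA box and 1.05% the sterol regulatory element. No single motif was thus shared by the 4 windows printed, and a match of letters is a description, not a binding site.

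All 6 genes had lower mean FPKM with DT-061 than with Vehicle, and 5 of them fell, the exception being Fabp3. Once library medians were made equal, only Retn still fell, and Gpam turned to no decrease (0.03). As deposited, Retn differed most, at 4.95-fold lower, and Gpam least, at 1.71-fold lower. In the table as a whole 65.0% of genes fell, so 5 of 6 is read against a background that already leans to lower values. The DT-061 and Vehicle values did not overlap in Mlxipl, Gpam and Retn, where 48.2% of all genes in the table were lower without overlap. The median log2 change of the 6 genes was -1.11, against -0.58 over all genes in the table. The table median mixes genes that rose with genes that fell, so it is not the typical size of a fall. By the size of the log2 change the 6 genes ranked from 54 (Retn) to 616 (Gpam) among the 1329.

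**Figure D1:**
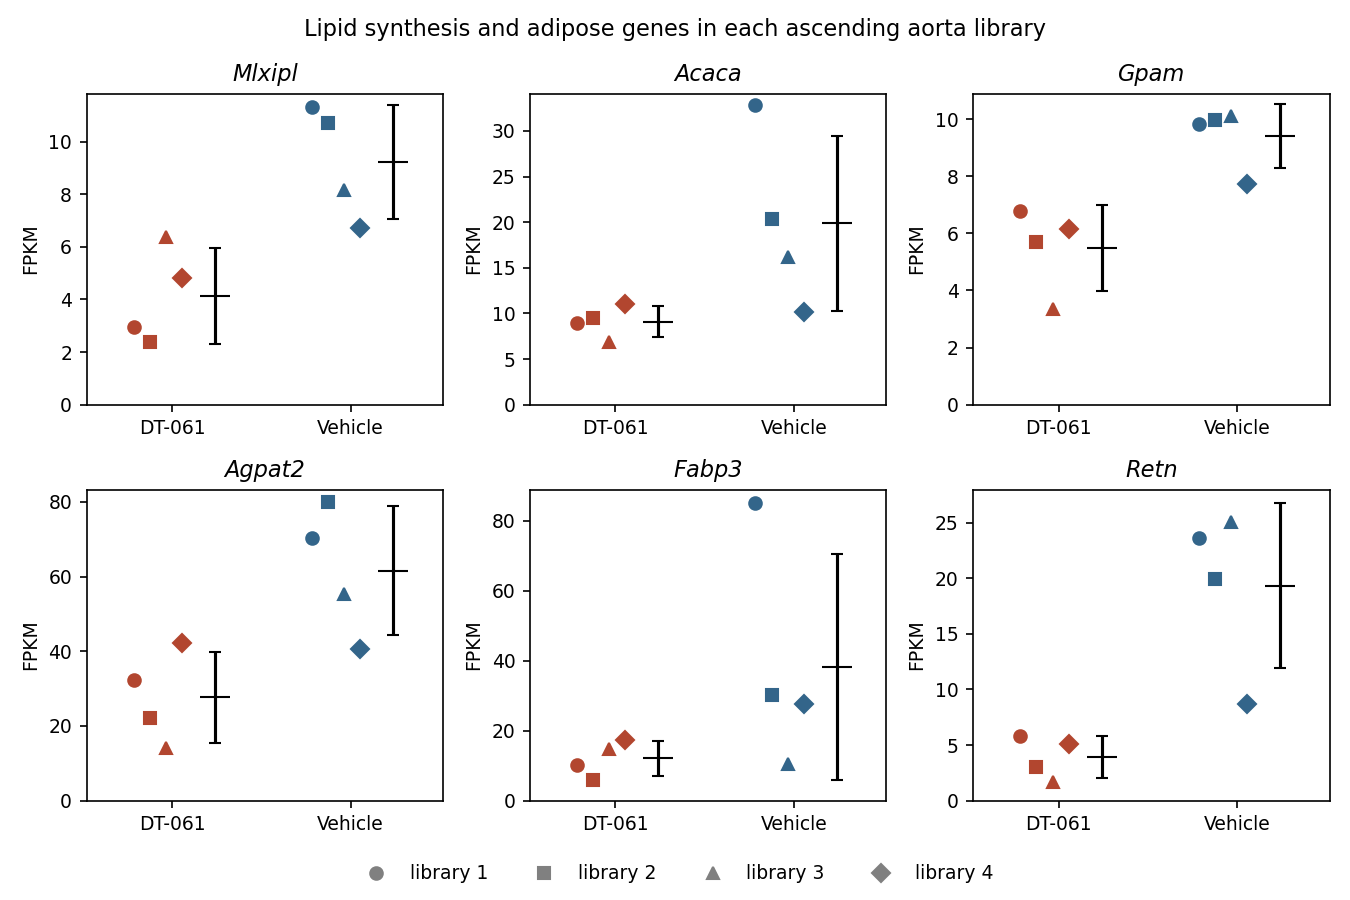
FPKM of each gene (vertical axes, from 0) in the 4 DT-061 and 4 Vehicle libraries, 1 point per library with its shape giving the library number, and the mean ± SD as bars. Mlxipl, Gpam and Retn have no overlap between the groups, while single libraries overlap in Acaca, Agpat2 and Fabp3, and Vehicle library 4 is the lowest Vehicle point in every gene but Fabp3.

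Mlxipl (ENSMUSG00000005373, GRCm38 chromosome 5, 135089890 to 135138382) encodes the carbohydrate response factor ChREBP. Its levels were 2.97, 2.37, 6.36 and 4.82 FPKM in DT-061 libraries 1 to 4, and 11.3, 10.7, 8.15 and 6.70 FPKM in Vehicle libraries 1 to 4. All DT-061 libraries were below all Vehicle libraries, with DT-061 library 3 close to Vehicle library 4. The means were 4.13 ± 1.82 FPKM with DT-061 and 9.23 ± 2.19 FPKM with Vehicle (SD, n = 4 each), and the log2 change, here and below with its SE, was -1.04 ± 0.28 (limma adjusted p = 0.018). The two-sided exact permutation test over the 8 libraries gave p = 0.0286, the smallest it can give.

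Acaca (ENSMUSG00000020532, chromosome 11, 84129672 to 84401651) encodes acetyl-CoA carboxylase α, which commits acetyl-CoA to fatty acid synthesis. It had 8.91, 9.51, 6.87 and 11.0 FPKM in DT-061 libraries 1 to 4, and 32.8, 20.3, 16.2 and 10.2 FPKM in Vehicle libraries 1 to 4. Vehicle libraries 1 to 3 were above every DT-061 library, and Vehicle library 4 lay inside the DT-061 range. The means were 9.06 ± 1.70 FPKM with DT-061 and 19.9 ± 9.59 FPKM with Vehicle, so that the log2 change came to -0.95 ± 0.32 (limma adjusted p = 0.024, SE). The exact permutation p was 0.0571. The call ended without DT-061 library 3 (-0.84, limma adjusted p = 0.057) and without Vehicle library 2 (-0.91, limma adjusted p = 0.052).

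Gpam and Agpat2 encode enzymes of adjoining steps on the way to phosphatidic acid. Gpam (ENSMUSG00000024978, chromosome 19, 55067268 to 55127238), the mitochondrial glycerol-3-phosphate acyltransferase, adds the first fatty acid. It had 6.78, 5.69, 3.34 and 6.15 FPKM in DT-061 libraries 1 to 4, and 9.82, 9.98, 10.1 and 7.72 FPKM in Vehicle libraries 1 to 4. The Vehicle values were close to each other in libraries 1 to 3, and the groups did not overlap. The means were 5.49 ± 1.5 FPKM with DT-061 and 9.41 ± 1.13 FPKM with Vehicle, and the log2 change came to -0.71 ± 0.20 (limma adjusted p = 0.018, exact permutation p = 0.0286).

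Agpat2 (ENSMUSG00000026922, chromosome 2, 26593057 to 26604417), the acyltransferase that turns lysophosphatidic into phosphatidic acid, is known for its need in adipose tissue, since its loss causes congenital lipodystrophy in humans. It had 32.2, 22.1, 14.2 and 42.1 FPKM in DT-061 libraries 1 to 4, and 70.2, 80.0, 55.2 and 40.6 FPKM in Vehicle libraries 1 to 4. DT-061 library 4 was slightly above Vehicle library 4, and otherwise the groups were apart. The means were 27.6 ± 12.1 FPKM with DT-061 and 61.5 ± 17.3 FPKM with Vehicle, and the log2 change came to -1.19 ± 0.34 (limma adjusted p = 0.019, exact permutation p = 0.0571).

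Fabp3 (ENSMUSG00000028773, chromosome 4, 130308595 to 130315463) encodes the fatty acid binding protein best known from heart and skeletal muscle, which carries fatty acids within the cell. It had 10.3, 5.91, 14.8 and 17.3 FPKM in DT-061 libraries 1 to 4, and 85.0, 30.1, 10.4 and 27.5 FPKM in Vehicle libraries 1 to 4. Vehicle library 1 was far above the other libraries and Vehicle library 3 was within the DT-061 range, so that the SD was 84.6% of the mean with Vehicle. The means were 12.1 ± 5.04 FPKM with DT-061 and 38.2 ± 32.4 FPKM with Vehicle, and the log2 change of -1.31 ± 0.59 did not pass (limma adjusted p = 0.057, exact permutation p = 0.0857). Without Vehicle library 3 it was -1.79 and passed (limma adjusted p = 0.037), and without Vehicle library 1 it was -0.82 (limma adjusted p = 0.12). None of the 22 markers fixed for cardiac and skeletal muscle was in the table, so the levels of these listed genes beside Fabp3 were not analysed here. The skeletal muscle gene Myl1, which is not on that list, was in the table and is named below among the genes nearest to Fabp3.

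Retn (ENSMUSG00000012705, chromosome 8, 3655770 to 3660110) encodes resistin, a hormone that in mice is secreted mainly by white adipocytes. It had 5.81, 3.03, 1.69 and 5.07 FPKM in DT-061 libraries 1 to 4, and 23.6, 19.9, 25.1 and 8.70 FPKM in Vehicle libraries 1 to 4. Every DT-061 library was below every Vehicle library, and Vehicle library 4 stood apart from the other Vehicle libraries toward the DT-061 range. The means were 3.90 ± 1.88 FPKM with DT-061 and 19.3 ± 7.40 FPKM with Vehicle, and the log2 change came to -2.04 ± 0.40 (limma adjusted p = 0.014, exact permutation p = 0.0286). By the size of its log2 change Retn was number 54 among the 1329 genes. The values rested on an estimated 38.8 to 132 fragments per DT-061 library and 194 to 697 per Vehicle library. The DT-061 estimates lay 0.14 to 0.30 from a whole number, outside the 0.03 used to find the totals, so they are approximate. The other 5 genes had at least 76 estimated fragments in every library.

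The order of levels, which FPKM makes comparable between genes of different length, was not the same in the groups. With DT-061 it was Agpat2, Fabp3, Acaca, Gpam, Mlxipl and Retn from high to low. With Vehicle it was Agpat2, Fabp3, Acaca, Retn, Gpam and Mlxipl. Each neighbouring pair in the Vehicle order had overlapping ranges of FPKM. In the DT-061 order the pairs overlapped too, except that Acaca, with 6.87 to 11.0 FPKM, stayed just above Gpam, with 3.34 to 6.78 FPKM.

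The size of the changes depended on how whole libraries were scaled. With all library medians made equal, which moved the log2 changes of all genes by a median of 0.683, only Retn of the 6 still fell, at -1.31 (limma adjusted p = 0.0057). Mlxipl (-0.31), Acaca (-0.16), Agpat2 (-0.36) and Fabp3 (-0.51) did not pass, and Gpam turned to 0.03. With quantile normalization, which moved all genes by a median of 0.556, Retn (-1.56) and Agpat2 (-1.12) fell, while Mlxipl (-0.44), Acaca (-0.67), Gpam (-0.12) and Fabp3 (-1.08) did not pass. Set against the summed smooth muscle contractile genes, which moved all genes by a median of -0.565, all 6 fell, by -1.32 for Gpam to -2.64 for Retn. All 10 genes of that sum rose without overlap between the groups. Dividing by it therefore lowers every gene with DT-061, and these falls are not separate evidence. Rises made up 31.9% of all calls as deposited, 59.0% with equal medians, 65.3% with quantile normalization and 0.339% against the smooth muscle sum. Each of these scalings assumes a balance that a table selected for changed genes need not have.

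**Figure D2:**
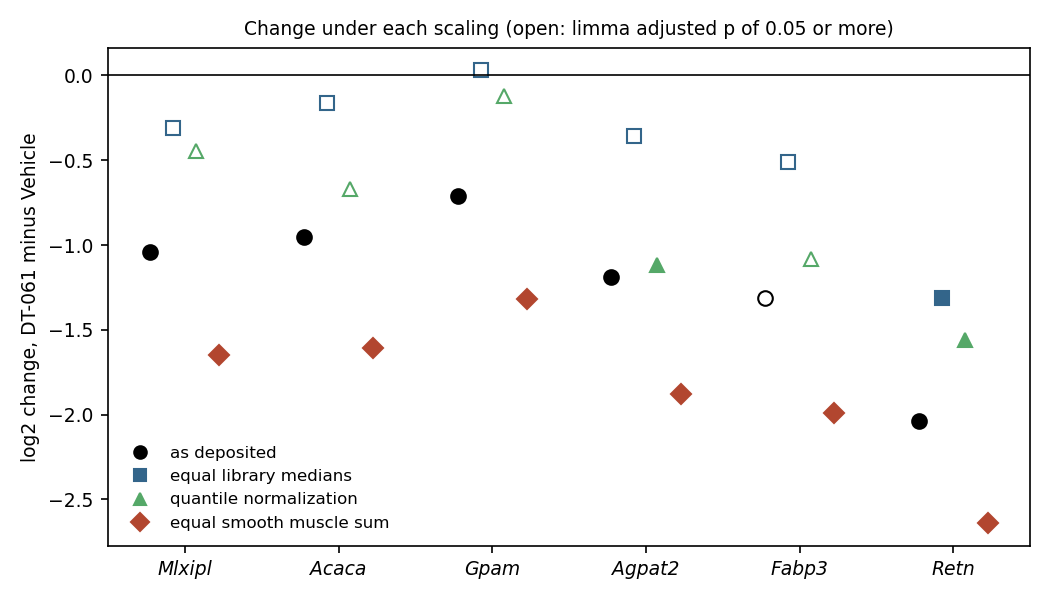
Log2 change, DT-061 minus Vehicle, of each gene (vertical axis) as deposited and under 3 scalings of whole libraries, with open symbols where the limma adjusted p was 0.05 or more. Retn is filled under all 4, between -1.31 and -2.64, and Gpam with equal library medians lies just above 0 at 0.03. The smooth muscle scaling lowers every gene, because all 10 genes of its sum rose.

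The ratio of 2 genes within a library does not change when the whole library is multiplied by 1 factor, as it is with equal medians or the smooth muscle sum, but quantile normalization can change it. As deposited, all 15 pairs of the 6 genes were compared by this ratio. Retn was lower relative to 3 of the others without overlap between the groups. The ratio of Retn to Agpat2 was 0.181, 0.137, 0.119 and 0.120 in DT-061 libraries 1 to 4, and 0.336, 0.249, 0.455 and 0.215 in Vehicle libraries 1 to 4. The ratio of Retn to Gpam was 0.506 to 0.857 with DT-061 and 1.13 to 2.48 with Vehicle, and that of Retn to Acaca was 0.247 to 0.652 with DT-061 and 0.719 to 1.55 with Vehicle. Each of these 3 pairs had the smallest exact permutation p the design allows, 0.0286, and an adjusted p of 0.143 over the 15 pairs. With that smallest p, 3 pairs of 15 cannot pass the correction however large their difference. Not passing therefore does not decide whether these ratios differ. In the other 12 pairs the groups overlapped, with exact permutation p of 0.114 to 1. Agpat2 and Gpam, the neighbouring enzymes, had ratios of 3.88 to 6.85 with DT-061 and 5.25 to 8.01 with Vehicle (exact permutation p = 0.143, adjusted p = 0.429).

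Retn was also set beside Cfd, the gene of adipsin (complement factor D), a serine protease secreted in large amounts by adipocytes. Cfd and Retn were the only members of the list of 18 white adipocyte markers in the table, and both fell. Cfd had 326, 184, 72.4 and 330 FPKM in DT-061 libraries 1 to 4, and 784, 596, 1390 and 489 FPKM in Vehicle libraries 1 to 4. It was 3.57-fold lower without overlap, with a change of -1.94 ± 0.53 (log2; limma adjusted p = 0.018), and it passed under the 3 scalings (-1.09 with equal medians, -1.81 with quantile normalization and -2.65 against smooth muscle). The last of these scalings lowers every gene with DT-061. The ratio of Retn to Cfd was 0.0154 to 0.0234 with DT-061 and 0.0178 to 0.0334 with Vehicle, with overlap. The other 16 white adipocyte markers, among them Adipoq, Lep and Plin1, were not analysed here, so the amount of fat in each sample was not tested. Of the 16 brown adipocyte markers 1 was in the table, the kininogen gene Kng2, which fell (log2 change -1.27 ± 0.32, limma adjusted p = 0.017) at levels of at most 1.18 FPKM with DT-061 and 4.60 FPKM with Vehicle, and did not pass with quantile normalization, at -0.45.

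**Figure D3:**
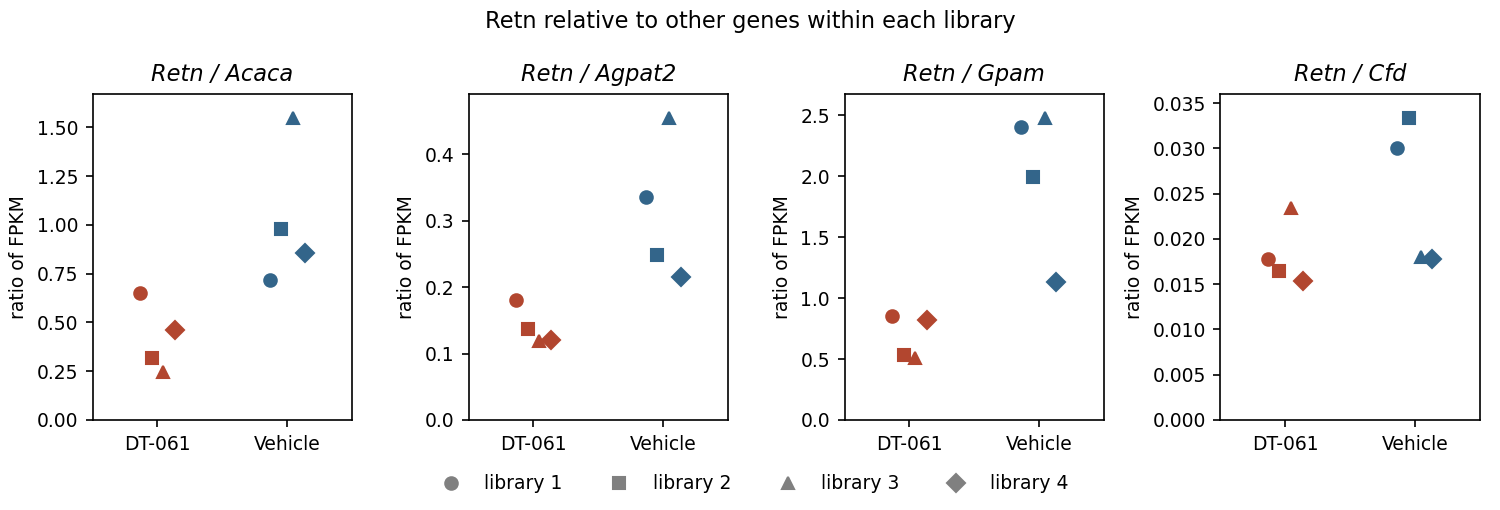
Ratio of Retn FPKM to that of Acaca, Agpat2, Gpam and Cfd within each library (vertical axes, from 0), 1 point per library. The DT-061 points lie below the Vehicle points for Acaca, Agpat2 and Gpam, while for Cfd the groups overlap between 0.0178 and 0.0234.

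Of 8 other listed genes of lipid and carbohydrate metabolism in the table, 6 fell and 2 rose as deposited, where 65.0% of all genes in the table fell, so this share is near that of the table. In fatty acid synthesis and its control, 4 of 21 listed genes were in the table and all 4 fell, 2 of them Mlxipl and Acaca. The remaining 2 were Elovl5, an elongase of polyunsaturated fatty acids, with 19.8 ± 0.911 FPKM with DT-061 and 26.5 ± 1.32 FPKM with Vehicle (SD, n = 4 each; log2 change -0.40 ± 0.07 SE, limma adjusted p = 0.013), and Nr1h3, which encodes the sterol-activated receptor LXRα, with a log2 change of -0.55 ± 0.13. In glycerolipid synthesis, 3 of 23 were in the table. Gpam and Agpat2 fell and Cds2, an enzyme that turns phosphatidic acid toward phosphatidylinositol, rose by 0.22 ± 0.07 (limma adjusted p = 0.023), with 34.7 to 39.4 FPKM with DT-061 and 32.1 to 32.6 FPKM with Vehicle.

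In fatty acid uptake and binding, 2 of 23 listed genes were in the table. Beside Fabp3, the lipoprotein receptor gene Vldlr rose, with 10.5, 11.5, 16.1 and 11.3 FPKM in DT-061 libraries 1 to 4, against 8.49, 9.10, 9.47 and 8.75 FPKM in Vehicle libraries 1 to 4 (log2 change 0.41 ± 0.14 SE, limma adjusted p = 0.025). Its groups did not overlap, though the call ended without Vehicle library 1 (limma adjusted p = 0.051). In lipolysis and lipid droplets, 2 of 19 were in the table and both fell: Pnpla3, a lipid droplet protein induced with lipid synthesis in liver, was 3.37-fold lower at -1.54 ± 0.47 and Abhd5, the activator of adipose triglyceride lipase, was 1.6-fold lower at -0.59 ± 0.16. The only listed gene of cholesterol handling was Soat1, which esterifies cholesterol for storage, with a log2 change of -0.41 ± 0.12, and the only one of carbohydrate supply was the hexokinase gene Hk2, at -0.47 ± 0.12 (limma adjusted p = 0.018 and 0.017). None of the 30 genes listed for fatty acid oxidation was in the table, so that pathway was not analysed here.

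Scaling bore on these genes as well. With equal medians Elovl5 (0.42), Nr1h3 (0.23), Abhd5 (0.18), Soat1 (0.30) and Hk2 (0.31) turned to higher, Soat1 also with quantile normalization (0.26), and none of these passed. With quantile normalization Elovl5, Nr1h3, Cds2, Pnpla3, Abhd5 and Hk2 kept their sign but did not pass, as Pnpla3 did not with equal medians (-0.89, limma adjusted p = 0.052). Against the smooth muscle sum, Cds2 (-0.48) and Vldlr (-0.25) turned to lower, and Cds2 lost its call without DT-061 library 1 and with the replicate number as a block (limma adjusted p = 0.058 and 0.076), as Soat1 did with the block (0.057).

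**Figure D4:**
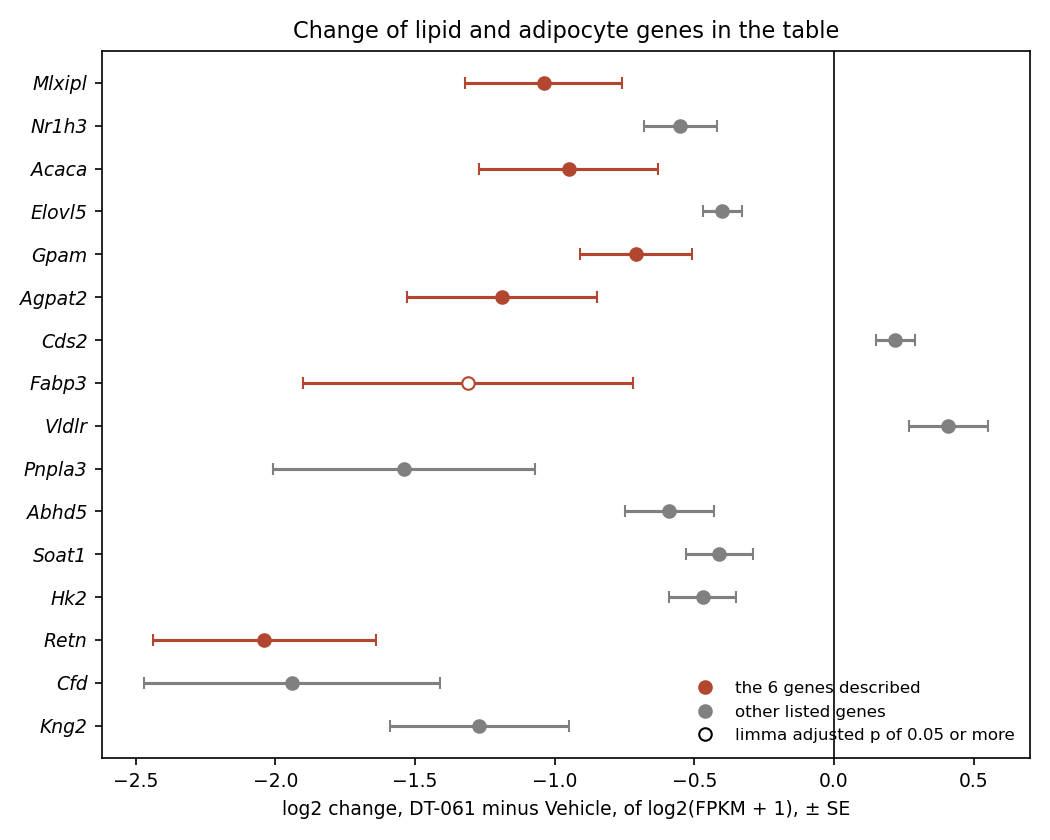
Log2 change, DT-061 minus Vehicle, of log2(FPKM + 1) with its SE (horizontal axis) for the 6 genes (red) and the other listed lipid, carbohydrate and adipocyte genes in the table (grey), with open symbols where the limma adjusted p was 0.05 or more. Retn and Cfd lie furthest to the left at -2.04 and -1.94, and Cds2 and Vldlr are the points right of 0 at 0.22 and 0.41, and they turn to -0.48 and -0.25 when set against the smooth muscle sum.

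Among the 4 DT-061 libraries, library 3 had the lowest value of Acaca, Gpam, Agpat2 and Retn but the highest of Mlxipl. Among the Vehicle libraries, library 4 had the lowest value in 5 of the 6 genes, all but Fabp3. The same libraries stood apart over the whole table and in marker lists of other cells. The median FPKM over all genes of the table was 2.67 in DT-061 library 3, where the other DT-061 libraries had 3.48 to 4.11. In Vehicle library 4 this median was 4.42, where the other Vehicle libraries had 6.36 to 8.4. The summed FPKM of the 14 of 20 lymphocyte markers in the table with DT-061 was 9.17 in library 3, where its other libraries had 24.0 to 43.2, and with Vehicle was 76.9 in library 4, where its other libraries had 625 to 2330. For 3 of 18 monocyte and macrophage markers the sums were 2.97 to 15.4 FPKM with DT-061 and 17.2 to 111 FPKM with Vehicle, lowest in the same libraries. For 4 of 15 neutrophil markers they were 1.47 to 4.56 FPKM with DT-061 and 9.60 to 60 FPKM with Vehicle. For 3 of 15 fibroblast markers they were 84.8 to 155 FPKM with DT-061 and 221 to 361 FPKM with Vehicle, and none of the 15 endothelial markers was in the table. Only markers chosen as significant on this comparison could enter these sums. Their difference between the groups therefore does not measure the number of these cells. The part of these cells, and of the lower library medians, in the lipid gene differences was not tested. With DT-061 library 3 and Vehicle library 4 both left out, the same 5 genes fell, with log2 changes of -1.36 for Mlxipl, -1.10 for Acaca, -0.61 for Gpam, -1.10 for Agpat2 and -2.11 for Retn, and Fabp3 was at -1.47 (limma adjusted p = 0.10). Both libraries stand out by the values of these same genes, so this fit is not separate evidence. Leaving out the lowest Vehicle library widens the gap between the groups, and leaving out the lowest DT-061 library narrows it.

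The genes most like each of the 6 in pattern were found among 1008 protein coding genes of the table with a mean of at least 1 FPKM. The measure was the mean absolute difference of log2(FPKM + 1), each gene centred on its mean over the 8 libraries, so the shared difference between the groups counts toward it. Acaca was nearest to Nfkbie, an inhibitor of NF-κB, AB124611 and Ly6e (0.081, 0.089 and 0.095 log2 units, where the median over all genes was 0.413), and Gpam to Dram1, Rasa3 and Tmed5 (0.068, 0.074 and 0.083, median 0.454). Agpat2 was nearest to Milr1, the endothelial receptor gene Robo4 and Apobr (0.137, 0.178 and 0.180, median 0.502), and Mlxipl to the metalloproteinase gene Adam8, the potassium channel gene Kcnn4 and Ralgds (0.142, 0.210 and 0.240, median 0.543). Retn was nearest to the matrix protein gene Comp, Ifi205 and the class II invariant chain gene Cd74 (0.235, 0.248 and 0.268, median 0.774). Fabp3 had no gene as close, with the cytokine gene Il6, the skeletal muscle myosin light chain gene Myl1 and Nxpe5 at 0.486, 0.491 and 0.492 (median 0.779). None of the 6 was among the 3 nearest to another of the 6. The pair of them with the smallest difference was Acaca and Gpam, at 0.284, and the best place that any took in the order of another was that of Mlxipl, number 4 for Fabp3 at 0.501.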

How the data were processed

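Poly-A RNA of 8 ascending aorta libraries was read from both fragment ends by Illumina NovaSeq sequencing, according to the labels' protocols. The submitters' processing notes name the mm10 build with featureCounts 1.5.0-p3, StringTie 1.3.3b and HISAT2 2.0.5, without the role of each. The deposited values are FPKM computed by the authors, in a table whose name says that it holds significant genes. The tool and threshold behind that choice, the fragment total and the strand setting are not given in those sources, so reads of overlapping genes cannot be told apart. Symbols were found for 1328 of 1329 IDs. Coordinates and exonic lengths are from GENCODE M21 on GRCm38, the build of mm10.

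Fragment totals were estimated from the spacing of low FPKM values, because FPKM multiplied by exonic length moves in steps of 1 fragment (whole within 0.03, multiples up to 60). At the total chosen, 91.9% to 100% of 37 to 67 preselected values per library were whole, against 2.17% to 5.26% at the median total tried.

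The main test was limma 3.58.1 (trend and robust options, R 4.3.3) on log2(FPKM + 1) over all 1329 genes with treatment as the only term, so fold changes on that scale understate those of low genes. Ratios and single genes were tested by exact permutation. The procedure was also run on simulated data with independent noise for each gene. These data held neither shifts of whole libraries nor the selection of the table, so that run does not bear on either. The alternatives tried were a minimum mean of 1 FPKM, a pseudocount of 0.1, limma without its options, 3 scalings, a replicate block, and left-out libraries. Named genes were the 6, all genes in the table from the lipid, carbohydrate and adipocyte lists, and the 3 nearest genes to each. The genes and lists were chosen with earlier results of these data known.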

Additional observations from a re-analysis of the deposited data

Results flagged for a closer look

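The lowest Vehicle value of Gpam, 7.72 FPKM in library 4, stood apart from the other Vehicle libraries at 9.82, 9.98 and 10.1 FPKM. Its gap to the nearest of them was 0.872 of the group's range, above Dixon's critical value for 4 samples. It was 1 of 32 groups checked over 16 genes, and chance gives about 1 in 20. The value was still above every DT-061 library, and without Vehicle library 4 the log2 change of Gpam was -0.79 (limma adjusted p = 0.011).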

How the results depend on the processing

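Of the 6 genes, 5 fell as deposited, 1 with equal library medians and 2 with quantile normalization, and 4 to 6 with 1 library left out. Over the table, 864 genes fell as deposited, against 301 with equal medians, 209 with quantile normalization and 652 to 881 with 1 library left out. The number that rose, 404 as deposited, was 3 against the smooth muscle sum, 204 with the replicate block and 254 to 351 with 1 library left out, lowest without Vehicle library 3. The cause was not tested. With equal medians Gpam (0.03), Abhd5 (0.18), Elovl5 (0.42), Hk2 (0.31), Nr1h3 (0.23), Soat1 (0.30), Ralgds (0.054), Rasa3 (0.093) and Tmed5 (0.036) turned to higher, as Soat1 did with quantile normalization (0.26), and against the smooth muscle sum Cds2 (-0.48) and Vldlr (-0.25) turned to lower. A pseudocount of 0.1, a minimum mean of 1 FPKM and limma without its options left 5 of the 6 genes falling.

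No pairing of libraries of equal number was visible. The correlation of their deviations from the group means was 0.184, -0.107, -0.0519 and -0.466 for numbers 1 to 4, and 1 of the 4 DT-061 libraries correlated best with its own number. With so few libraries this check cannot show whether equal numbers share a litter or batch. With the replicate number as a block, 204 genes rose and 630 fell, and the same 5 of the 6 genes fell (limma adjusted p of 0.046 to 0.048). The depth, at 38.8 estimated fragments for the lowest value of Retn, limits single values of that gene most.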
